A study of Mus musculus with 4 samples.

Results

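The genes described here form one arm of growth factor signalling: the epidermal growth factor (EGF) receptor Egfr, its ligands Hbegf, Areg and Ereg, the receptor inhibitor Errfi1, and the feedback inhibitors Spry1, Spry2, Spry4, Spred1 and Spred2. They were chosen by gene symbol, and 9 of the 10 were among the 16051 genes with values. The expression of Areg was not analysed here. The libraries were made from differentiated 3T3-L1 cells, a mouse line that can form adipocytes in culture and that the labels describe as NIH SWISS adipocytes. The RNC libraries came from cells given the vehicle, dimethyl sulfoxide (DMSO), and are called DMSO here, although the labels name them untreated. The RIS libraries came from cells given 100 μM risperidone, an atypical antipsychotic, and the exposure of both lasted 48 h. Dose and time are those that the study gives for its cell experiments in general, and the labels state neither. Each treatment had 2 libraries, and each library held RNA pooled from 3 cultures of this single line. The p-values therefore measure the spread between pools and not between single cultures.

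The EGF family works by short-range signalling between cells. Ligands such as Hbegf and Ereg are made as membrane proteins and are cut free by surface proteases, and the released part binds Egfr or a related ErbB receptor. The receptor then activates Ras and the Raf-MEK-ERK kinase chain. Errfi1, also called Mig6, binds the kinase domain of the receptor and holds it inactive. Sprouty proteins (Spry) and the related Spred proteins restrain the step from receptor to Ras and Raf, and several of these inhibitors are themselves transcribed in response to growth factors, which makes them a feedback loop. In the adipose field the pathway is studied because ERK activity takes part in the switch from preadipocyte to adipocyte.

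The libraries held between 15883712 and 16374119 counts, and a count of 0 allows up to 3 counts, or 0.183 to 0.189 CPM (counts scaled to the library total), where only counting error is covered. The markers did not all bear out the label of adipocytes. Lpl, Fabp4 and Pparg were present at 11.4 FPKM (fragments per kilobase of transcript, scaled to the mapped reads) or more in every library, whereas Adipoq, Slc2a4, Lep and Cebpa had 5 counts or fewer in each. The 12 adipocyte markers summed to 400 and 453 FPKM in the DMSO libraries and to 283 and 294 FPKM in the risperidone libraries, a difference made mostly by Fabp4 and Lpl. Lipe was lower too, at 7.88 and 7.23 against 3.24 and 3.17 FPKM, while Pparg and Dgat2 lay within 11.4 to 12.8 and 14.7 to 15.3 FPKM. The 10 fibroblast or preadipocyte markers summed to between 2170 and 2370 FPKM in all 4 libraries, although single markers went both ways, with Col1a1, Thy1, Dlk1 and Ly6a higher in both risperidone libraries and Col1a2, Col3a1, Pdgfra, Pdgfrb and Vim lower in both. The RNA extraction label names retina, but the 6 retina markers with values summed to between 0.89 and 1.28 FPKM. Risperidone replicate 2 stood apart. Its 12 kidney markers, all with counts, summed to 203 FPKM, against 2.18 to 3.08 FPKM in the other 3 libraries, where 2 or 3 of them had no count. Epithelial markers summed to 1.17 FPKM in it and to 0.01 FPKM or less in the others, so values without this library are given where it moves a result. Bulk RNA cannot separate a change in the number of cells of a kind from a change of RNA per cell.

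Promoter sequences are shown for 4 members that differed between the treatments, 3 of them higher and 1 lower with risperidone, so that they can be compared. The windows are those of RefSeq on GRCm38.p6, from 250 bases before to 50 bases after a transcription start, and 7 of the 10 members had 8 of them. Errfi1 had 2 starts, of which the second is shown (chr4:150854820-150855119, + strand). The windows of Spred2 (chr11:19924192-19924491, + strand), Spry1 (chr3:37639697-37639996, + strand) and Spred1 (chr2:117120821-117121120, + strand) follow. Capitals mark any match, on either strand, to the core TGACGT of the cyclic AMP response element, to the AP-1 motif TGANTCA, to the ETS motif CCGGAA or to the CArG box of serum response factor.
Errfi1: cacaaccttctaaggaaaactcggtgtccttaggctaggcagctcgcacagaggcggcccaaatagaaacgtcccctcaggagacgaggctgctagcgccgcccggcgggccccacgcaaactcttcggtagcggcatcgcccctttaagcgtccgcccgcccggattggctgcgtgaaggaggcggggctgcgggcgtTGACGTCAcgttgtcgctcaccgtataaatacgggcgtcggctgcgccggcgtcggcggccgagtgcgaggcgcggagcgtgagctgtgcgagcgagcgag
Spred2: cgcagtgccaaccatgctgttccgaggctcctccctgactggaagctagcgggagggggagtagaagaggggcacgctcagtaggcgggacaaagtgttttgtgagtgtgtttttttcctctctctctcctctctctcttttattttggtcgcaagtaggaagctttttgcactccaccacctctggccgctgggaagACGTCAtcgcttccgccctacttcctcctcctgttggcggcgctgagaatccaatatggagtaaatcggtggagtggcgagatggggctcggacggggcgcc
Spry1: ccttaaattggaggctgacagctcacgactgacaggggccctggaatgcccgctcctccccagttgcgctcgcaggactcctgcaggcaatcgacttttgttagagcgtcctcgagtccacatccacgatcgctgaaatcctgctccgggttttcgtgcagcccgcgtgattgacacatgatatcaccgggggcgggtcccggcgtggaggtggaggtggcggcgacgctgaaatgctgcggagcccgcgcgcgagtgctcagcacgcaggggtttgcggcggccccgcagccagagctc
Spred1: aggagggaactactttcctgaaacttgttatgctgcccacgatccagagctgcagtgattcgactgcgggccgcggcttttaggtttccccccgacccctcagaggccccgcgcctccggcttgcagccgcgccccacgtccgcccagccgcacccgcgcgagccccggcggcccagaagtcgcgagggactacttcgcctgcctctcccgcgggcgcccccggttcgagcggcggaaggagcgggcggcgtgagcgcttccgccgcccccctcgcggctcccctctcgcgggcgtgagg
In the Errfi1 window the TGACGT core was read 51 and 49 bases before the start, 1 reading on each strand, and both overlap in a single palindrome. In Spred2 it lay 52 bases before the start. The windows of Spry1 and Spred1 and the other window of Errfi1 held none of the 4 motifs. Among the 8 member windows, 3 held the TGACGT core (Errfi1, Spred2 and Areg) and 2 held CCGGAA (Egfr and Spry2), against 7.51% and 14.9% of all 32851 windows. TGANTCA and the CArG box, present in 7.81% and 1.63% of all windows, were in 0 of the 8. A match describes the letters only, and a window without one says nothing of a factor.

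Whether risperidone changed the transcripts of this loop was asked by comparing the 2 risperidone with the 2 DMSO libraries in edgeR's quasi-likelihood test on counts, over the 10243 genes whose mean reached 1 FPKM. Of the members, 6 passed that limit. Hbegf, Errfi1 and Spred2 rose, Ereg and Spred1 fell, and Spry2 was not called. These 5 calls have to be read against a background in which 64.3% of all genes tested were called at an adjusted p under 0.05, 32.1% as higher and 32.2% as lower. The FPKM ranges of the treatments did not overlap for any of the 6 members, as for 82.2% of all genes tested. The 6 members had a median log2 fold change of 0.32, against 0.0 for the whole set tested. That median lies in the gap between Spry2 (-0.22) and Hbegf (0.86), so it describes no single member and no common shift.

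**Figure D1:**
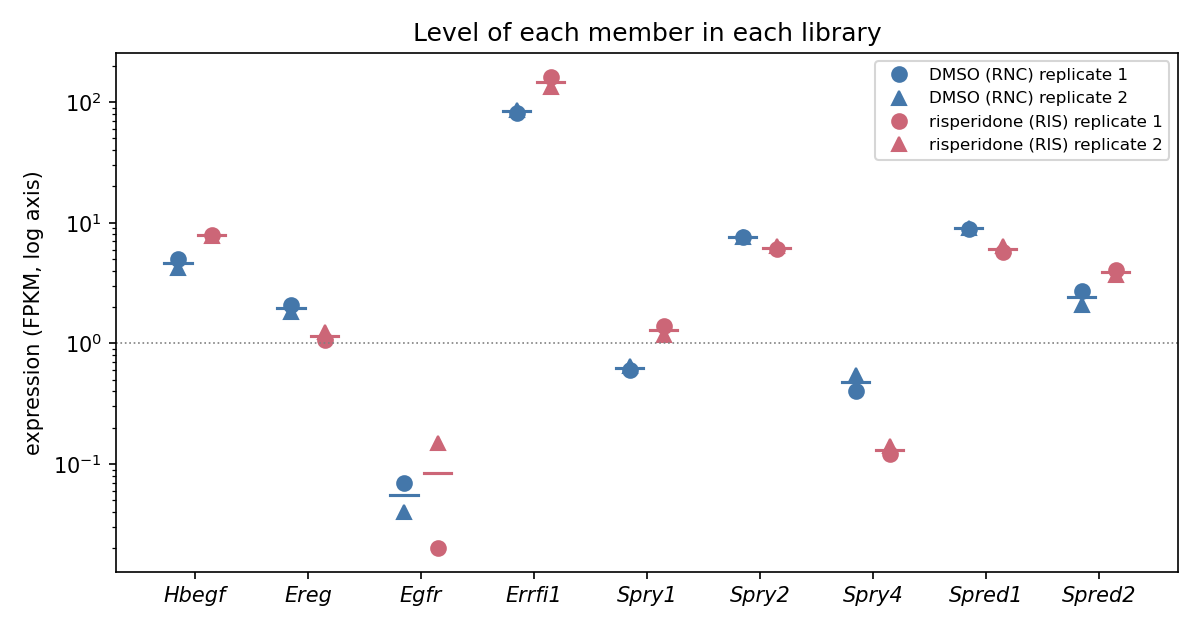
Expression in FPKM, on a log axis, of the 9 members in each of the 4 libraries (blue, DMSO; red, risperidone; circles, replicate 1; triangles, replicate 2; short lines, means; dotted line, 1 FPKM). Errfi1 lies above all others at 81.27 to 162.93 FPKM, and Egfr lies at 0.15 FPKM or below in every library.

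The 2 ligands with values moved in opposite directions. Hbegf (heparin-binding EGF-like growth factor, NCBI Gene 15200, chr18:36504927-36515805 on GRCm38.p6) was at 4.99 and 4.24 FPKM in the DMSO libraries and at 7.98 and 7.74 FPKM in the risperidone libraries. Both risperidone values lay above both DMSO values. The means were 4.62 ± 0.530 and 7.86 ± 0.170 FPKM (SD, n = 2 libraries each). In edgeR the rise was 0.86 ± 0.123 on the log2 scale (± standard error throughout for log2 values), with an adjusted p of 0.000107 after Benjamini-Hochberg adjustment. Ereg (epiregulin, NCBI Gene 13874, chr5:91074617-91093649), a ligand of both Egfr and Erbb4, was at 2.09 and 1.81 FPKM with DMSO and at 1.06 and 1.25 FPKM with risperidone. The risperidone values were the lower ones, without overlap. The means were 1.95 ± 0.198 and 1.16 ± 0.134 FPKM (SD, n = 2 libraries each), and edgeR gave a difference of -0.66 ± 0.175 on the log2 scale with an adjusted p of 0.00645. Without DMSO replicate 1 the log2 fold change of Ereg was -0.55 and its adjusted p from edgeR 0.0784, so that call needed that library. Within a library, Hbegf was 2.39 and 2.34 times the level of Ereg in FPKM with DMSO, and 7.53 and 6.19 times with risperidone. Their sum was 7.08 and 6.05 FPKM with DMSO and 9.04 and 8.99 FPKM with risperidone. Both genes overlap another annotated RefSeq gene, Gm41698 for Hbegf and Gm19610 for Ereg, and whether the counting used strand is not given in the sources used here.

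Egfr, the receptor of these ligands (NCBI Gene 13649, chr11:16752203-16913907), was barely detected. It had 5 and 4 counts in the DMSO libraries and 1 and 10 in the risperidone libraries, or 0.07, 0.04, 0.02 and 0.15 FPKM. The lowest and the highest value were both from risperidone libraries. The ratio of the summed counts, 11 against 9, was 1.22 per total count, with an exact 95% interval of 0.461 to 3.34 that covers counting error only, so neither a rise nor a fall was detectable at this depth. Risperidone replicate 2, the library with the kidney markers, gave 10 of the 11 risperidone counts of Egfr, and the part of those markers in it was not tested. In the fit with no lower limit on expression, the log2 fold change of Egfr was 0.37 with a standard error of 1.06, and without risperidone replicate 2 it was -1.93 (adjusted p = 0.805 and 0.236 from edgeR). Of all genes in the table, 20.2% had a mean FPKM below that of Egfr. Egfr overlaps Gm39584 and Egfros in RefSeq, for which no value was used.

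Errfi1 (ERBB receptor feedback inhibitor 1, NCBI Gene 74155, chr4:150853796-150868889) was by far the most abundant member and rose. Its counts were 3838 and 3979 with DMSO and 7657 and 6129 with risperidone. In FPKM the DMSO libraries stood at 81.27 and 86.74 and the risperidone libraries at 162.93 and 132.54. The treatments were well apart, and the risperidone libraries differed from each other more than the DMSO libraries did. The means were 84.0 ± 3.87 and 148 ± 21.5 FPKM (SD, n = 2 libraries each). The fitted rise was 0.91 ± 0.0842 on the log2 scale, or 1.88-fold, with an edgeR adjusted p of 4.5e-06. Without risperidone replicate 1, the higher library, the log2 fold change was 0.75, and without risperidone replicate 2 it was 1.06. By mean FPKM, Errfi1 stood above 96.2% of all genes in the table. The gene overlaps 1700045H11Rik in RefSeq, for which no value was used.

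**Figure D2:**
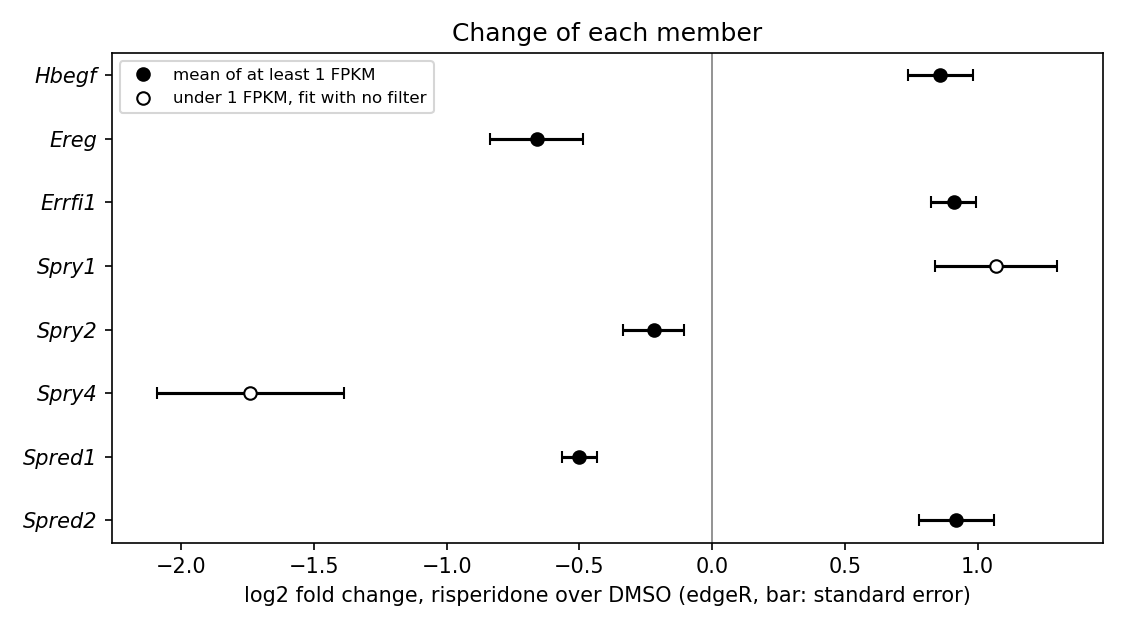
Log2 fold change, risperidone over DMSO, of 8 members (points) with standard errors (bars) from edgeR, with filled points where the mean reached 1 FPKM and open points for Spry1 and Spry4, which lay under it and come from the fit with no lower limit. Hbegf, Errfi1, Spry1 and Spred2 lie to the right of 0, and Ereg, Spry2, Spry4 and Spred1 to the left.

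The Sprouty genes did not move as a group. Spry2 (NCBI Gene 24064, chr14:105891947-105896819), the most abundant of the 3, was at 7.58 and 7.61 FPKM with DMSO and at 6.04 and 6.36 FPKM with risperidone. The risperidone values were lower in both libraries, but on the count scale of the test the difference missed the threshold. Its log2 fold change was -0.22, with a 95% interval of -0.47 to 0.04 and an adjusted p of 0.118 from edgeR, so a decrease of that size or none at all is within the interval. Scaling by library size alone gave -0.31 (adjusted p = 0.0339 from edgeR). After limma on log2(TPM + 1) it was -0.41 (adjusted p = 0.00301 from limma), and on log2(FPKM + 1) -0.26 (adjusted p = 0.0163 from limma), so the call for Spry2 depends on the scaling and the test, and with any of these 3 settings the members would divide into 3 higher and 3 lower.

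Spry1 and Spry4 lay under the limit of 1 FPKM and were tested only in the fit with no limit, over 16021 genes, where 37.6% of genes were called, 18.4% as higher and 19.3% as lower. Spry1 rose there and Spry4 fell, and neither overlapped between the treatments, as was so for 63.5% of the genes with a count. These shares are over all genes with a count, most of them above 1 FPKM, so they are no like background for Spry1 and Spry4. Spry1 (NCBI Gene 24063, chr3:37639947-37644599), with a mean of 0.952 FPKM, was just outside the limit. It had 23 and 24 counts with DMSO and 49 and 44 with risperidone, or 0.60, 0.65, 1.39 and 1.17 FPKM. Both risperidone values were above both DMSO values, and the fitted rise was 1.07 ± 0.231 on the log2 scale with an edgeR adjusted p of 0.0169. Spry4 (NCBI Gene 24066, chr18:38586247-38601347) had 29 and 39 counts with DMSO and 9 and 10 with risperidone, or 0.40, 0.55, 0.12 and 0.14 FPKM. It fell, with a fitted difference of -1.74 ± 0.352 on the log2 scale and an edgeR adjusted p of 0.0137. Without risperidone replicate 2 these values were 1.17 for Spry1 and -1.79 for Spry4 (adjusted p = 0.0172 and 0.0285 from edgeR). Spry2 stood at 12.6 and 11.7 times the FPKM of Spry1 with DMSO, and at 4.35 and 5.44 times with risperidone. Spry2 over Spry4 went the other way and was higher in both risperidone libraries than in both DMSO libraries. Summed over the 3 genes, Sprouty transcripts were at 8.58 and 8.81 FPKM with DMSO and at 7.55 and 7.67 FPKM with risperidone.

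The pair of Spred genes also divided. Spred1 (NCBI Gene 114715, chr2:117121071-117182279), whose protein recruits neurofibromin to switch Ras off, was at 8.95 and 9.06 FPKM with DMSO and at 5.75 and 6.45 FPKM with risperidone. It fell, the means being 9.0 ± 0.0778 and 6.1 ± 0.495 FPKM (SD, n = 2 libraries each), and edgeR put the difference at -0.50 ± 0.0655 on the log2 scale with an adjusted p of 5.77e-05. Spred2 (NCBI Gene 114716, chr11:19924442-20024026), a close relative, was at 2.73 and 2.08 FPKM with DMSO and at 4.06 and 3.69 FPKM with risperidone. It rose, the means being 2.41 ± 0.460 and 3.88 ± 0.262 FPKM (SD, n = 2 libraries each), and edgeR put the difference at 0.92 ± 0.142 on the log2 scale with an adjusted p of 0.000194. For neither gene did the treatments overlap. Spred1 was 3.28 and 4.36 times as abundant as Spred2 in the DMSO libraries, and 1.42 and 1.75 times in the risperidone libraries. The summed FPKM of the pair was 11.68 and 11.14 with DMSO and 9.81 and 10.14 with risperidone.

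**Figure D3:**
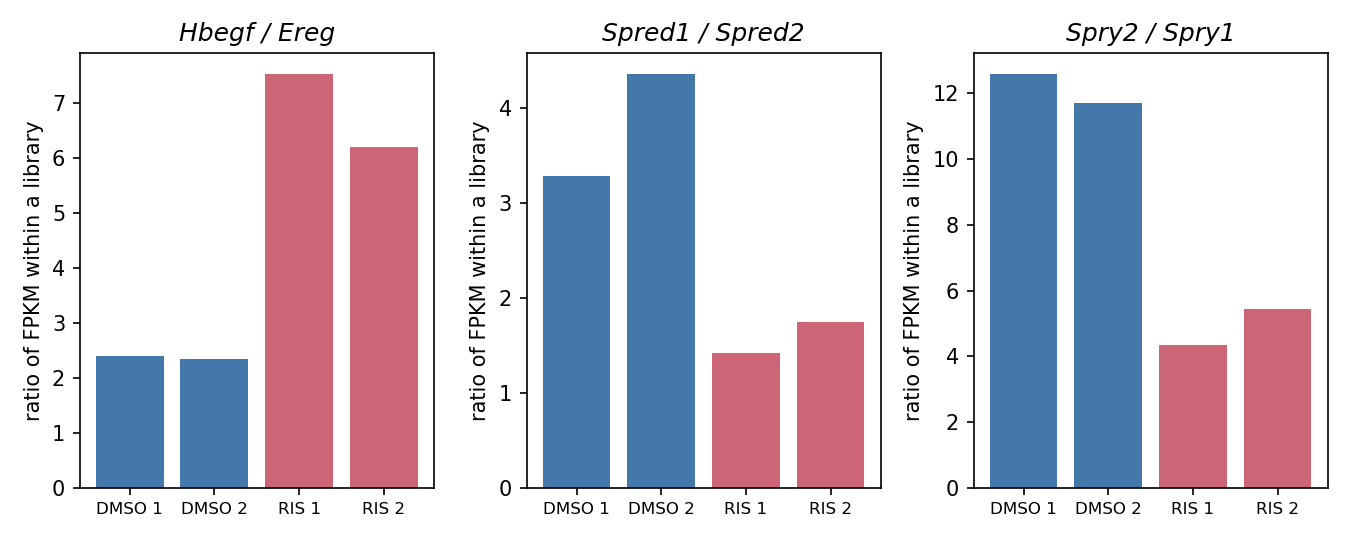
Ratio of the FPKM of paired members within each library (blue bars, DMSO; red bars, risperidone; axes start at 0). Hbegf over Ereg is 2.34 and 2.39 with DMSO against 6.19 and 7.53 with risperidone. Spred1 over Spred2 is lower with risperidone (1.42 and 1.75), and so is Spry2 over Spry1 (4.35 and 5.44). Spry2 over Spry4, not drawn, is higher with risperidone.

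By FPKM, which allows genes to be compared per length, the order of the members with DMSO was Errfi1, Spred1, Spry2, Hbegf, Spred2, Ereg, Spry1, Spry4 and Egfr. In that order the libraries of Spred2 and Ereg overlapped, and those of every other pair of neighbours did not. With risperidone the order was Errfi1, Hbegf, Spry2, Spred1, Spred2, Spry1, Ereg, Spry4 and Egfr. Here Spry2 overlapped with Spred1, Spry1 with Ereg, and Spry4 with Egfr. Hbegf thus lay below Spry2 and Spred1 with DMSO and above both with risperidone.

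The wider pathway was described with 74 further genes in 8 lists, of which 59 had a mean of at least 1 FPKM. Of these, 16 were higher, 21 were lower and 22 were not called, and the median log2 fold change was -0.04. The share called was 62.7%, against 64.3% of all genes tested. These counts include Egf, Dusp4, Plaur and Etv1, which reached 1 FPKM only through the libraries of 1 treatment, so nothing is read from them. The division was 21 higher and 19 lower with offsets for gene length, 12 higher and 26 lower with library size alone, and 9 higher and 33 lower with limma on log2(TPM + 1), a setting that changes both scaling and test and moved the median of all genes tested to -0.22 on the log2 scale.

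Among the other receptors, Erbb2, the partner with no ligand of its own, was at 11.05 and 10.86 FPKM with DMSO and at 8.93 and 9.26 FPKM with risperidone (difference -0.17 on the log2 scale, edgeR adjusted p = 0.0287). Its call was lost without DMSO replicate 1 (adjusted p = 0.0848) or risperidone replicate 1 (0.0675), with DESeq2 (0.153) and with offsets for gene length (0.235). Erbb3 had 0, 1, 2 and 16 counts and Erbb4 0, 0, 0 and 3, each given for DMSO replicates 1 and 2 and then risperidone replicates 1 and 2, so nearly all of their reads were in the library with the kidney markers. Erbb2 was thus the only receptor of the family above 1 FPKM in these libraries.

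Among the other ligands, Egf itself had 21 and 24 counts with DMSO, 35 in risperidone replicate 1 and 213 in risperidone replicate 2. Its log2 fold change of 2.55 (adjusted p = 0.00518 from edgeR) was 0.72 without risperidone replicate 2 (adjusted p = 0.0821), so the call rests on that library, as does its place above 1 FPKM, and the part of the kidney markers in it was not tested. Nrg1 (neuregulin 1), a ligand of Erbb3 and Erbb4, had 14 and 13 counts with DMSO and 77 and 85 with risperidone. Its FPKM values were 0.21 and 0.13 against 1.02 and 1.29, under the limit on average. In the fit with no limit Nrg1 rose by 2.67 ± 0.210 on the log2 scale (edgeR adjusted p = 0.000771), and by 2.62 without risperidone replicate 2 (adjusted p = 0.00172). Tgfa and Nrg4 had between 3 and 13 counts in each library, and Btc, Epgn and Nrg3 had 1 count or none. Nrg2 was not analysed here. Of the 14 list genes under 1 FPKM that the fit with no limit tested, Nrg1 alone was called. The 37.6% called in that fit is over all its genes, most of them above 1 FPKM, so it is no like background for these 14.

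The ADAM proteases cut ligands and other proteins from the cell surface. In the list for ligand shedding and trafficking, 3 of 9 genes were higher and 4 lower, or 77.8% called against 64.3% of all genes tested, and the higher count was 1 with library size alone. Adam10 fell from 149.04 and 148.95 FPKM to 92.90 and 101.78 FPKM (log2 fold change -0.52, adjusted p = 9.49e-06 from edgeR). Adam17, the main sheddase of Hbegf and Ereg, fell from 31.65 and 31.09 FPKM to 22.26 and 23.70 FPKM (-0.35, adjusted p = 9.15e-05). Adam12 (-0.36) and the heparan sulfate proteoglycan Gpc1 (-0.42) fell too. The 3 higher genes were Adam9 (0.20), Rhbdf2 (0.26) and Cd9 (0.26), and with limma on log2(TPM + 1) they were at -0.04, 0.02 and 0.02, with adjusted p of 0.519, 0.875 and 0.776.

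In the list of adaptors and the Ras cycle, 2 of 12 genes were higher and 3 lower, or 41.7% called against 64.3% of all genes tested. This division depended on the setting, with 4 higher and 4 lower with offsets for gene length, 1 higher and 6 lower with library size alone and 0 higher and 8 lower with limma on log2(TPM + 1). Gab2 was among the higher ones (log2 fold change 0.45, but 0.20 with an adjusted p of 0.0711 from limma on log2(TPM + 1)), and Shc1 (-0.48), Hras (-0.36) and Ptpn11 (-0.29) fell. Among the Raf-MEK-ERK kinases, 3 of 8 genes were higher and 3 lower, or 75.0% called against 64.3% of all genes tested. Mapk3, which encodes ERK1, went up from 107.54 and 102.92 FPKM to 151.30 and 141.37 FPKM (0.57, adjusted p = 3.95e-06 from edgeR). Braf rose (0.56), as did the scaffold Ksr1 (0.39), whose call was lost with limma on log2(TPM + 1) (0.15, adjusted p = 0.161). Map2k2 (-0.39) was among those that fell.

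Among genes for receptor degradation and other receptor inhibitors, 1 of 10 was higher and 5 lower, or 60.0% called against 64.3% of all genes tested, and these counts were 0 and 7 with limma on log2(TPM + 1) and 2 and 3 with offsets for gene length. Cbl, the ubiquitin ligase that marks Egfr for destruction, fell from 10.55 and 9.45 FPKM to 5.66 and 6.88 FPKM (log2 fold change -0.58, adjusted p = 0.000182 from edgeR). Stam2 (-0.53) and Ptpn1 (-0.35) fell as well. Rnf41 was called lower (-0.20), and its call was lost with DESeq2 (adjusted p = 0.12), with offsets for gene length (0.115) and, in edgeR, without DMSO replicate 2 (0.0781). In the list of the remaining Sprouty and Spred genes with their partners, 1 of 8 was higher and 1 lower, or 25.0% called against 64.3% of all genes tested, and the lower count was 3 with library size alone and 4 with limma on log2(TPM + 1). Spry3 fell from 3.05 and 3.21 FPKM to 1.33 and 1.60 FPKM (-1.0, adjusted p = 0.000124 from edgeR), Mknk1 rose (0.58), and Spred3 was not called (0.28, adjusted p = 0.0889 from edgeR, and -0.06 with limma on log2(TPM + 1)).

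The transcripts that ERK is known to induce also divided. Of the 15 genes in that list, 10 reached a mean of 1 FPKM, of which 5 were called higher and 4 lower, or 90.0% called against 64.3% of all genes tested. Dusp4 and Plaur reached it only through the risperidone libraries and Etv1 only through the DMSO libraries, so these counts are partly set by the limit and nothing is read from them. Egr1 was at 10.54 and 10.05 FPKM with DMSO and at 2.95 and 3.42 FPKM with risperidone (difference -1.60 on the log2 scale, edgeR adjusted p = 2.58e-07). Ier3 (-1.31) and Phlda1 (-0.73) fell with it, and Etv1 was at 2.27 and 1.80 against 0.70 and 0.82 FPKM (-1.20). Myc, in contrast, rose from 6.07 and 6.23 FPKM to 17.85 and 14.00 FPKM (1.47, adjusted p = 1.18e-06 from edgeR), as did Epha2 (0.75) and Ccnd1 (0.60). Dusp4 was at 0.29 and 0.80 FPKM with DMSO and at 1.74 and 1.61 FPKM with risperidone, and its log2 difference of 1.72 was 1.17 without DMSO replicate 1 and 2.59 without DMSO replicate 2. Plaur was at 0.53 and 0.69 against 1.79 and 1.86 FPKM (1.69). Dusp6, a phosphatase of ERK, had 20 and 27 counts with DMSO and 7 and 12 with risperidone, and in the fit with no limit its log2 fold change of -1.21 was not called (adjusted p = 0.0923 from edgeR).

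**Figure D4:**
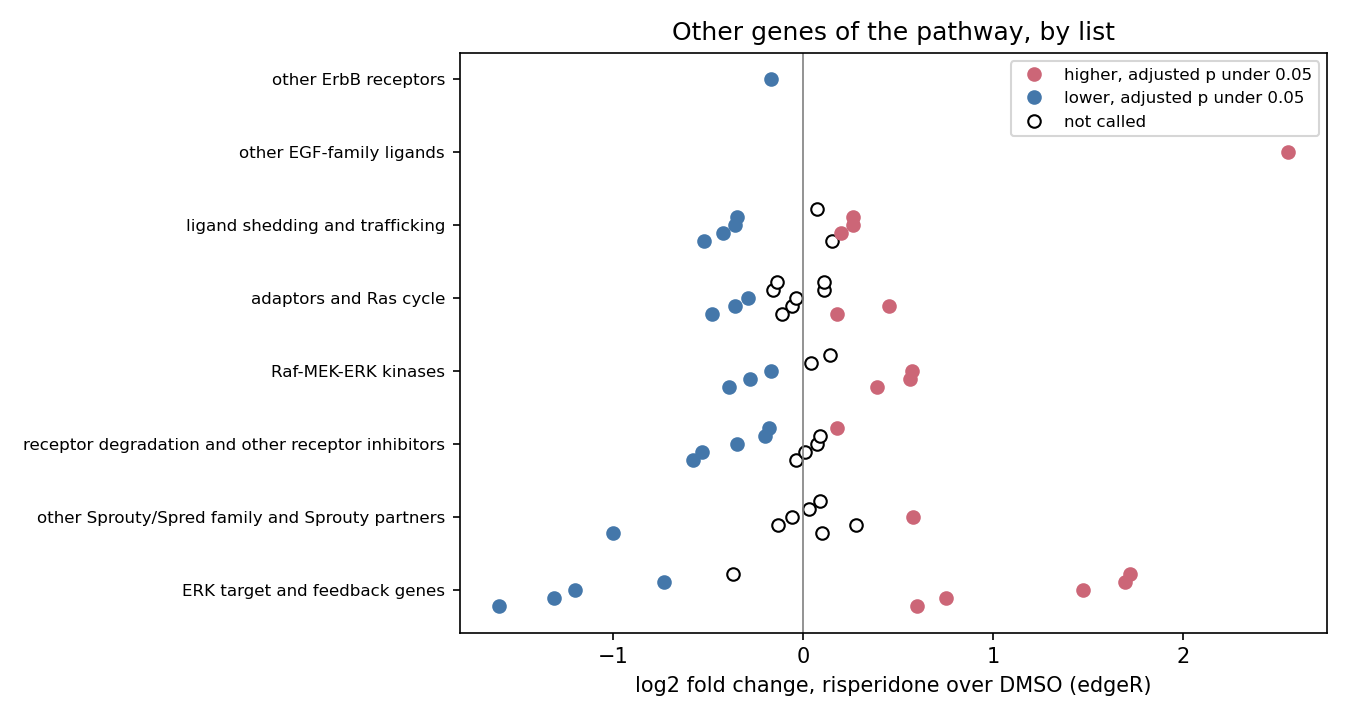
Log2 fold change, risperidone over DMSO, of the 59 tested genes of the 8 further lists from edgeR (1 point a gene; red, higher; blue, lower; open, not called; heights within a list are spread for legibility). The ERK target and feedback genes run from -1.60 (Egr1) to 1.72 (Dusp4, which reached 1 FPKM only through the risperidone libraries), and the single ligand at 2.55 is Egf, whose change rests on risperidone replicate 2.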

How the data were processed

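Differentiated 3T3-L1 cells were sequenced as 2 DMSO and 2 risperidone libraries. The authors cleaned the reads of adaptors, undetermined bases and low quality, and the submitters' processing notes list GRCm38.p6, Bowtie2, RSEM and DESeq2, without versions or roles. The table deposited by the authors gives for each gene an expected count (91.2% to 91.7% of values are whole), an FPKM value and a TPM value scaled to a fixed sum. Its mean columns, which the authors computed, were not used.

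Expected counts were rounded to whole numbers. The test was edgeR 4.0.16 under R 4.3.3 (TMM scaling, quasi-likelihood F-test, two-sided, Benjamini-Hochberg adjustment over all genes tested, threshold 0.05), run on genes whose mean reached 1 FPKM. The standard error of a log2 value was taken from its F statistic, as its size over the root of F. A count of 0 allows up to 3 counts. Alternatives were other scalings, limma 3.58.1 on log2 of TPM or FPKM with a pseudocount of 1, DESeq2 1.42.0, other filters, a replicate block, offsets for effective gene length, and each library left out. The fits were also run on simulated counts in which few genes changed, up and down alike. That run cannot test the choice of scaling in data where most genes are called. Promoter windows came from RefSeq (GRCm38.p6). The members and lists were chosen with earlier results of these data known. All 10 members were to be named, with up to 4 of the most changed called genes of each further list and all other receptors and ligands. Adam9, Rhbdf2, Cd9, Spred3, Phlda1, Etv1, Ier3, Epha2, Ccnd1 and Dusp6 lay outside that rule and were added after their values were seen. Some results are not reported here. Tables and figures were made with Python 3.11.15, pandas 2.3.3 and matplotlib 3.10.9.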

Additional observations from a re-analysis of the deposited data

How the results depend on the processing

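Hbegf, Errfi1, Spred1 and Spred2 kept their direction and their call under every alternative in which they were tested. Their log2 fold changes were 0.58 to 0.99, 0.66 to 1.08, -0.66 to -0.40 and 0.47 to 1.08. These ranges mix changes fitted on counts with limma on log2(TPM + 1) and log2(FPKM + 1), which are not the same measure. The ends at 0.58, 0.66, -0.66 and 0.47 came from limma on log2(TPM + 1). With each library left out, 3 members were higher each time and between 1 and 2 were lower. The log2 fold change of Ereg then ranged from -0.78 to -0.55, and it lost its call without DMSO replicate 1. A mean of at least 5 FPKM left 4 members to test, of which 2 were higher and 1 lower, since Spred2 and Ereg lay under that limit. Spry2 was called with library size alone (-0.31), with limma on log2(TPM + 1) (-0.41) and with limma on log2(FPKM + 1) (-0.26). Limma on log2(TPM + 1) gave 9 higher and 33 lower genes in the further lists. The cause was not tested. The replicate number as a block gave 3 higher and 2 lower members and 17 higher and 23 lower list genes. Same-numbered libraries deviated with a correlation of -0.105 across genes, and with the pairing crossed, chosen after seeing the data, the numbers were 3 and 2 members and 19 and 25 list genes. The fit without a limit and without risperidone replicate 2 was also chosen after seeing the data. Depth limits Egfr, Spry1 and Spry4, and 2 pooled libraries per treatment limit every test.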
